A study of Homo sapiens with 12 samples.

Results

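In cultures of HCT116 cells, 9 genes picked for their levels with a non-targeting siRNA are described here over all groups of the study. RGS2, TSC22D3, P3H2, MYPN and IL31RA were higher in the control siRNA cultures than after mock transfection, and SUSD2, PRF1, VASH2 and SERPINA1 were lower. P3H2 was higher still in a group given an NFYA siRNA. The 9 genes were chosen by measured values, because their levels differed most between siControl and mock or between siControl and the siTotal groups. They are 9 of the 63677 gene identifiers listed, and all 9 were among the 17730 genes with enough reads to be tested. The question is which control, the non-targeting siRNA or the mock transfection, the cultures given NFYA siRNAs resembled.

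HCT116 is an epithelial cell line from a human colon carcinoma. The study targeted NFYA, which gives the trimeric factor NF-Y its contact with the CCAAT box of promoters. The 6 groups of cultures sequenced as polyadenylated RNA were siTotal1 and siTotal2 (a first and a second siRNA to every NFYA transcript), siLong1 and siLong2 (a first and a second siRNA to the NFYA transcripts whose 3′ untranslated region is longest), siControl (a non-targeting siRNA) and mock (mock transfection, with no siRNA named). Each group has 2 libraries, called biological duplicates by the design text. A p-value sets a difference against the spread between such duplicates, estimated over all 6 groups together. That spread was small, with a common biological coefficient of variation of 3.57%. The siRNAs were used at 62.5 nM, 25000 cells were seeded per well, and every culture was collected 72 h after transfection, mock included.

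An siRNA duplex acts through its antisense strand, which an Argonaute protein holds and pairs with target RNA, beginning at the seed near its 5′ end. A mock transfection accounts for the reagent and the handling, while a non-targeting siRNA also loads the silencing machinery with a small RNA of its own sequence. The 9 genes are not members of one pathway. RGS2, IL31RA and TSC22D3 belong to receptor and hormone signalling, P3H2 and MYPN to matrix and cytoskeletal structure, VASH2 to the microtubule system, and SUSD2, PRF1 and SERPINA1 encode a surface protein, a secreted pore-forming protein and a secreted protease inhibitor.

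The sense strands of the NFYA siRNAs are shown because each group received a different small RNA. Capitals mark the 7 bases opposite bases 2 to 8 of the antisense strand, its seed, and all 4 seeds differ. The labels list them in this order without tying an order to the group numbers, and no sequence of the non-targeting siRNA was printed in them.
First siTotal sequence: acuagaggcagAAGGGAAa
Second siTotal sequence: uggugaaggugGACGAUUu
First siLong sequence: agugaucauugUAGGGUAa
Second siLong sequence: ggucauuccuuUAGCAUCa

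Promoter windows were searched for the word CCAAT, on either strand, since this is the core of the NF-Y site. RefSeq windows on GRCh38.p14 were found for 7 of the 9 genes (12 windows, since some genes have several starts), and the 250 bases before each start were read. The word was present in 4 of the 12 windows, those of RGS2, VASH2, P3H2 and MYPN, against 32.0% of all 35116 windows in the table. It is in capitals in the stretches below, which read along the strand of the gene. A match is a word in the sequence, and binding of NF-Y was not measured. The RefSeq starts are not always the ends of the gene spans given below. The stretches of P3H2 and MYPN and the later one of VASH2 lie inside those spans.
RGS2, chr1:192808940-192808964, plus strand: ctgcagccgaCCAATccgcgtcctc
VASH2, chr1:212950448-212950472, plus strand: acccctggagCCAATcagagcgtcg
VASH2, chr1:212950520-212950540, plus strand: gttgcggtggCCAATagacgc
P3H2, chr3:190122373-190122397, minus strand: cagggtccaaCCAATattcttgtga
MYPN, chr10:68109415-68109439, plus strand: tttctcctgtCCAATcaggtggaat

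The libraries held 35604197 to 49746637 reads counted in genes, the deepest being mock replicate 1. NFYA, the check on the labels, averaged 47.3 ± 0.781 CPM (read counts scaled to TMM-adjusted library size; mean ± SD, n = 2) in siTotal1, 46.1 ± 0.104 in siTotal2 and 47.1 ± 0.816 in siLong1, against 57.5 ± 0.0490 in siControl and 57.2 ± 2.80 in mock. In the libraries labelled siLong2 it averaged 69.9 ± 0.318 CPM, above both controls and against the direction of the label, and a gene count does not measure the long form by itself. Of 9 colon epithelium markers, EPCAM, CDH1, KRT8, KRT18, KRT19 and CDX2 were present in every library, and CDX1, VIL1 and LGALS4 stayed under 1 CPM in all of them. Lymphocyte markers summed to 0.847 to 1.53 CPM over all libraries, hepatocyte markers to 0.333 to 0.720 CPM and myeloid markers to 0.794 to 2.17 CPM, and CD8A was the only lymphocyte marker to reach 1 CPM. CD3D and GZMA, APOB and TTR, and FCGR3A had 0 reads in every library. Striated muscle markers, beside MYPN, summed to between 3.63 and 4.23 CPM in siControl and between 4.36 and 4.60 CPM in mock, with their highest sums in the libraries labelled siLong2, at 10.7 to 11.8 CPM. Fibroblast markers other than COL1A1, which every library expressed, were uneven: 6 of them summed to 8.94 CPM in mock replicate 1, 5.93 and 2.88 CPM in siTotal2 and 2.72 CPM in siLong2 replicate 2, and to between 0.184 and 0.696 CPM in the other libraries. Without mock replicate 1, the difference between siControl and mock moved by 0.0151 (VASH2) to 0.268 (MYPN) on the log2 scale, and none of the 9 changed direction. In bulk RNA, fewer cells of a type and less RNA per cell cannot be told apart.

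Because siControl against mock and siTotal against siControl chose the genes, their values are given as a description. In siControl against mock, IL31RA was 7.69-fold higher, MYPN 7.49-fold, P3H2 3.68-fold, RGS2 3.02-fold and TSC22D3 2.44-fold. SUSD2 was 6.45-fold lower, VASH2 4.42-fold, PRF1 3.74-fold and SERPINA1 3.61-fold. The background is wide: 39.8% of the genes tested were called in siControl against mock and 44.2% in siTotal against siControl (edgeR quasi-likelihood test, adjusted p under 0.05). By size of difference among the 12417 genes with an average log2 CPM over 1, the 9 ranked between 2 and 86 in siControl against mock, so other genes differed as much. In siTotal against siControl, 8 of the 9 differed by at least 1 on the log2 scale, as did 5.03% of all genes tested. Of the 9, P3H2 was the exception, at -0.31 (rank 3302), with siTotal1 and siTotal2 on opposite sides of siControl.

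RGS2 (ENSG00000116741, chromosome 1, 192809039 to 192812283 on GRCh38) encodes a regulator that speeds GTP hydrolysis by G-protein alpha subunits of the Gq class. It stood at 31.3 and 28.4 CPM in siTotal1, 28.4 and 29.8 CPM in siTotal2, 47.8 and 45.5 CPM in siLong1 and 45.6 and 44.5 CPM in the libraries labelled siLong2. The siControl libraries held 109.8 and 106 CPM and the mock libraries 34.9 and 36.7 CPM. Both siControl libraries were more than 2-fold above each of the other 10 libraries, and no other group overlapped them. The siLong groups overlapped each other above mock, and the siTotal groups overlapped each other below it. AL390957.1, a non-coding gene annotated on the opposite strand, overlaps RGS2 over 3245 bases. It is not listed in the counts, so its share of these reads is not known here.

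TSC22D3 (ENSG00000157514, chromosome X, 107713221 to 107777342) encodes GILZ, a leucine zipper protein that glucocorticoids induce. Its levels were 4.69 and 5.58 CPM in siTotal1, 6.51 and 7.22 CPM in siTotal2, 12.5 and 11.9 CPM in siLong1 and 6.10 and 7.25 CPM in the libraries labelled siLong2, against 16.5 and 17.6 CPM in siControl and 6.78 and 7.22 CPM in mock. siLong1 held the second-highest level, between the controls and apart from both. The libraries labelled siLong2 and those of siTotal2 overlapped mock, and siTotal1 lay below all other groups.

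P3H2 (ENSG00000090530, chromosome 3, 189956728 to 190122437) encodes a prolyl 3-hydroxylase of collagens, collagen IV of basement membranes among them. It reached 17.0 and 14.7 CPM in siTotal1, the only group above siControl, and 3.46 and 3.01 CPM in siTotal2. In siLong1 it stood at 2.00 and 2.67 CPM and in the libraries labelled siLong2 at 1.67 and 1.53 CPM, against 9.12 and 8.59 CPM in siControl and 2.42 and 2.38 CPM in mock. Only siLong1 overlapped mock. MTAPP2 and P3H2-AS1, annotated inside its span, held 92 and 5 reads over all 12 libraries.

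MYPN (ENSG00000138347, chromosome 10, 68106117 to 68212017) encodes myopalladin, a protein of the sarcomere's Z-disc. It had 2.03 and 1.77 CPM in siTotal1, 0.554 and 0.562 CPM in siTotal2, 5.36 and 6.06 CPM in siLong1 and 1.70 and 2.29 CPM in the libraries labelled siLong2. The siControl libraries had 7.75 and 7.49 CPM and the mock libraries 0.833 and 1.23 CPM. siLong1 was the group nearest to siControl, and siTotal2, with 20 and 22 reads, lay below mock. The libraries labelled siLong2 overlapped those of siTotal1.

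IL31RA (ENSG00000164509, chromosome 5, 55851379 to 55922853) encodes the interleukin-31 receptor subunit that pairs with the oncostatin M receptor. It stood at 5.28 and 4.82 CPM in siTotal1, 0.942 and 0.689 CPM in siTotal2, 1.19 and 1.06 CPM in siLong1 and 1.64 and 1.98 CPM in the libraries labelled siLong2. siControl held 5.39 and 5.71 CPM and mock 0.654 and 0.794 CPM. The 4 libraries of siControl and siTotal1 formed the upper set, all above 4.8 CPM, and the other 8 lay under 2 CPM. siTotal2 overlapped mock.

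SUSD2 (ENSG00000099994, chromosome 22, 24181259 to 24189110) encodes a single-pass membrane protein with a sushi domain. Its levels were 10.6 and 11.9 CPM in siTotal1, 59.9 and 60.6 CPM in siTotal2, 40.5 and 48.1 CPM in siLong1 and 22.1 and 21.9 CPM in the libraries labelled siLong2, against 3.71 and 3.34 CPM in siControl and 22.1 and 23.5 CPM in mock. This was the widest span of the 9 genes, 17.1-fold between the means of siTotal2 and siControl. The libraries labelled siLong2 touched the mock range, siTotal1 lay between the controls, and siTotal2 and siLong1 lay above mock.

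PRF1 (ENSG00000180644, chromosome 10, 70597348 to 70602775) encodes perforin, the pore-forming protein of cytotoxic lymphocyte granules. It had 4.16 and 5.04 CPM in siTotal1, 11.2 and 12.9 CPM in siTotal2, 10.1 and 11.5 CPM in siLong1 and 16.3 and 16.6 CPM in the libraries labelled siLong2. In siControl it had 1.37 and 1.32 CPM and in mock 4.66 and 5.46 CPM. siTotal1 overlapped mock, siTotal2 and siLong1 overlapped each other above it, and the libraries labelled siLong2 were highest.

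VASH2 (ENSG00000143494, chromosome 1, 212950520 to 212992037) encodes a vasohibin, which with its partner SVBP removes the terminal tyrosine of alpha-tubulin. It stood at 8.72 and 8.63 CPM in siTotal1, 9.20 and 9.65 CPM in siTotal2, 7.17 and 7.02 CPM in siLong1 and 7.91 and 7.11 CPM in the libraries labelled siLong2, against 2.05 and 2.64 CPM in siControl and 10.4 and 10.3 CPM in mock. Here siControl was the low group and mock the high one, and every NFYA siRNA library lay between them, on the side of mock.

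SERPINA1 (ENSG00000197249, chromosome 14, 94376747 to 94390693) encodes alpha-1 antitrypsin, an inhibitor of neutrophil elastase made mainly by the liver. It had 2.78 and 2.66 CPM in siTotal1, 3.79 and 3.22 CPM in siTotal2, 4.46 and 5.11 CPM in siLong1 and 3.82 and 3.51 CPM in the libraries labelled siLong2. The siControl libraries had 0.499 and 0.700 CPM, from 19 and 26 reads, and the mock libraries 1.96 and 2.41 CPM. All 8 NFYA siRNA libraries lay above both mock libraries.

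**Figure D1:**
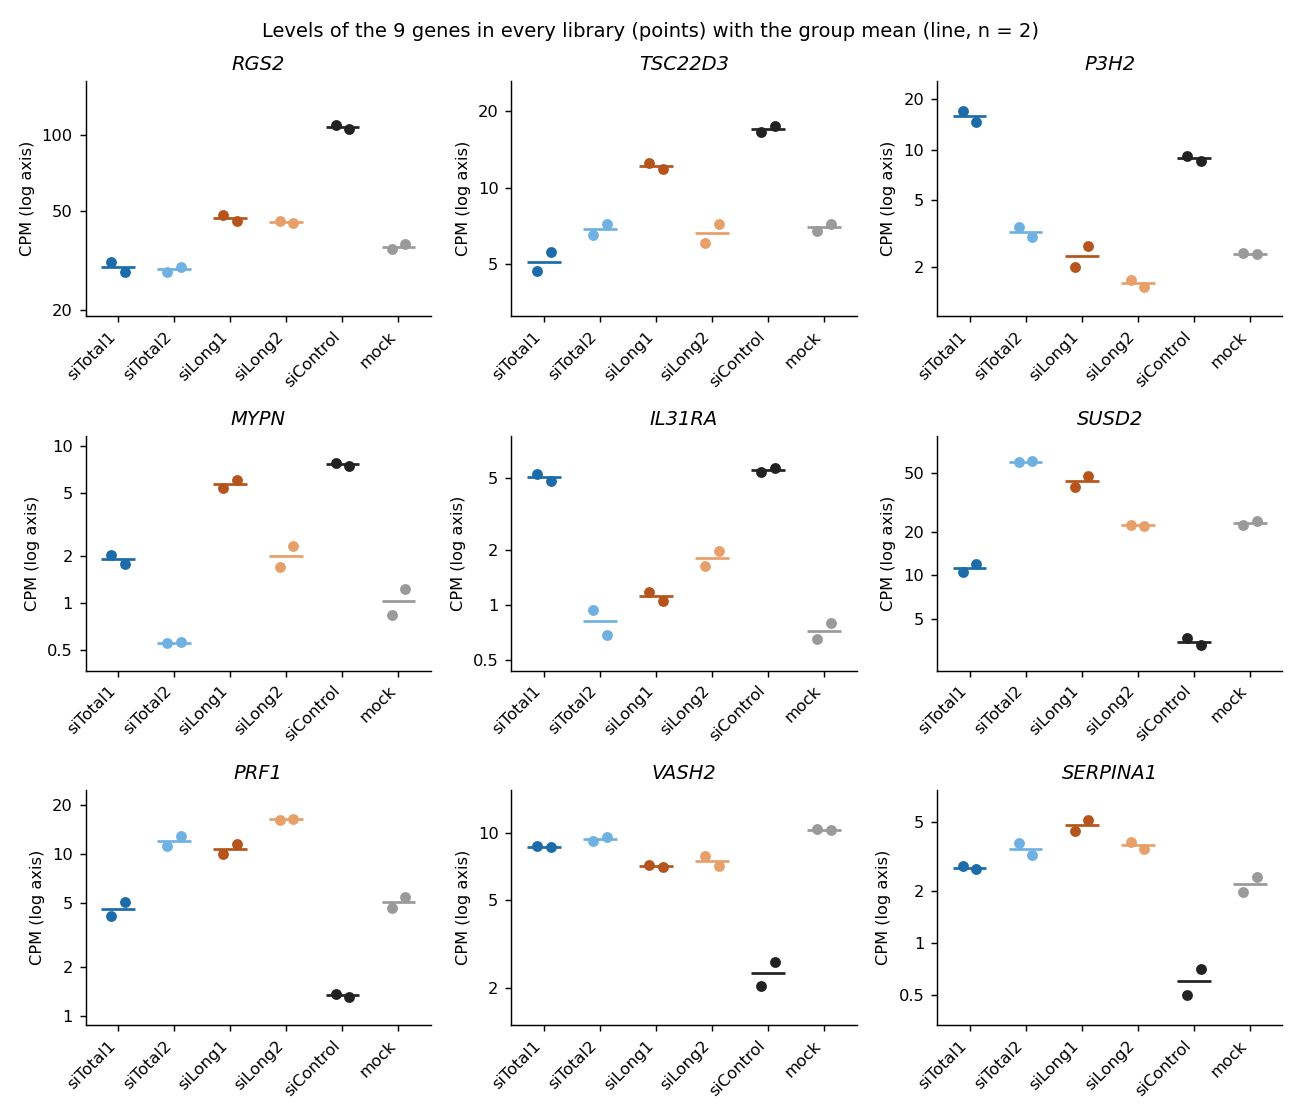
Level of each of the 9 genes in CPM on a log axis, with 1 point per library and a line at the mean of the 2 libraries of a group. The siControl points are the highest for RGS2, TSC22D3, MYPN and IL31RA and the lowest for SUSD2, PRF1, VASH2 and SERPINA1, while for P3H2 the siTotal1 points lie above them.

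Placed between the controls, most NFYA siRNA groups lay nearer to mock. Each group's fitted log2 level was set on a line from siControl (0) to mock (1) for each gene. Of the 36 pairs of a gene and an NFYA siRNA group, 32 were nearer to mock and 4 nearer to siControl. Those nearer to mock were 7 of 9 genes in siTotal1, 9 of 9 in siTotal2, 7 of 9 in siLong1 and 9 of 9 for the libraries labelled siLong2. The 4 exceptions were P3H2 (-0.45) and IL31RA (0.05) in siTotal1 and MYPN (0.14) and TSC22D3 (0.38) in siLong1. RGS2, SUSD2, PRF1, VASH2 and SERPINA1 were nearer to mock in all 4 groups.

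These counts are a description, since the genes were picked for a siControl level that stands apart, and every placement uses the same 4 control libraries. Over the 17721 other genes tested, 53.4% were nearer to mock in siTotal1, 64.2% in siTotal2, 54.0% in siLong1 and 53.8% for the libraries labelled siLong2. Among the 627 other genes called in siControl against mock with at least a 2-fold difference, the shares were 61.7%, 83.1%, 68.3% and 67.9% in the same order. siTotal2 thus had the highest share nearer to mock in both sets of other genes. Leaving out any 1 library, among them mock replicate 1 and siLong2 replicate 2 with their fibroblast marker reads, gave the same 4 counts for the 9 genes. Both siTotal2 libraries held such reads, so leaving out either kept the other, and siTotal2 without them could not be examined. The 9 genes stayed fixed in these refits, and the shares over the other genes are those of the main fit.

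Many values passed mock rather than stopping at it. SERPINA1 lay beyond mock in all 4 groups, at 1.18, 1.37, 1.62 and 1.41 in siTotal1, siTotal2, siLong1 and the libraries labelled siLong2. PRF1 did so in siTotal2 (1.66), siLong1 (1.58) and the libraries labelled siLong2 (1.89). VASH2 and IL31RA did so in none.

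**Figure D2:**
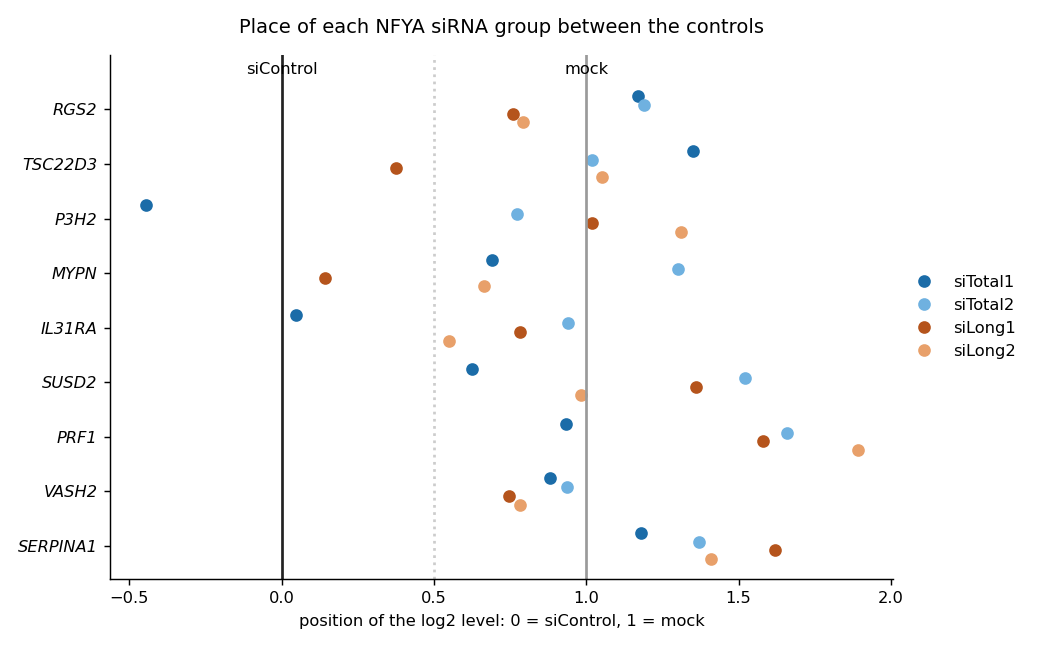
Position of each NFYA siRNA group on the log2 scale between siControl (0) and mock (1), 1 point per gene and group. Most points lie to the right of the dotted midpoint, and the 4 to its left are P3H2 and IL31RA in siTotal1 and MYPN and TSC22D3 in siLong1.

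The siRNAs to one target were then compared with each other. The siTotal libraries took part in the choice of genes, so the differences between siTotal1 and siTotal2 are given as a description with no test. Over all genes 43.9% were called in this comparison. IL31RA stood 2.63 higher in siTotal1 than in siTotal2 on the log2 scale (SE 0.19), P3H2 2.29 higher (SE 0.12) and MYPN 1.76 higher (SE 0.25). SUSD2 was at -2.42 (SE 0.08), PRF1 at -1.39 (SE 0.11), TSC22D3 at -0.42 (SE 0.12) and SERPINA1 at -0.36 (SE 0.16). RGS2 at 0.03 (SE 0.06) and VASH2 at -0.12 (SE 0.10) had the smallest differences of the 9.

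Between siLong1 and the libraries labelled siLong2, neither of which took part in the choice, 7 of the 9 genes differed, 5 higher and 2 lower in siLong1, where 53.7% of all genes were called (edgeR quasi-likelihood test, Benjamini-Hochberg adjustment over 17730 genes). The median absolute log2 difference was 0.605 over the 9 genes and 0.305 over all genes. MYPN rose by 1.52 (SE 0.17, adjusted p = 6.71e-10), SUSD2 by 1.01 (SE 0.07, adjusted p = 3.16e-14) and TSC22D3 by 0.87 (SE 0.10, adjusted p = 4.18e-09) in siLong1. PRF1 fell by 0.61 (SE 0.10, adjusted p = 1.97e-06). The calls of IL31RA, P3H2 and SERPINA1 were lost in some refits. IL31RA fell by 0.69 (adjusted p = 0.00637), a call lost without siLong1 replicate 2 (adjusted p = 0.0608) or siLong2 replicate 2 (adjusted p = 0.0864), with a range of 0.0046 to 0.0864 over all alternatives. P3H2 rose by 0.55 (adjusted p = 0.0115), and without siLong1 replicate 2 its difference was 0.32 (adjusted p = 0.28), while without siLong2 replicate 2 it was 0.48 (adjusted p = 0.0897; range over all alternatives 0.00415 to 0.28). SERPINA1 rose by 0.39 (adjusted p = 0.0278), a call lost with DESeq2 (adjusted p = 0.143) and without siLong1 replicate 2 (0.28, adjusted p = 0.252), siLong2 replicate 1 (adjusted p = 0.0601) or siLong2 replicate 2 (adjusted p = 0.179), the range over all alternatives being 0.011 to 0.252. RGS2 at 0.05 (adjusted p = 0.455) and VASH2 at -0.08 (adjusted p = 0.546) did not pass.

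In siTotal1 against siTotal2 and in siLong1 against the libraries labelled siLong2, MYPN and P3H2 were higher and PRF1 lower in the siRNA numbered 1. SUSD2, TSC22D3, IL31RA and SERPINA1 had differences of opposite sign. The numbers are labels within each target and tie no siTotal sequence to a siLong sequence, so like or opposite signs carry no meaning of their own. RGS2 and VASH2 had small differences in both (0.03 and 0.05 for RGS2, -0.12 and -0.08 for VASH2), with SEs of 0.05 to 0.11 on the log2 scale.

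**Figure D3:**
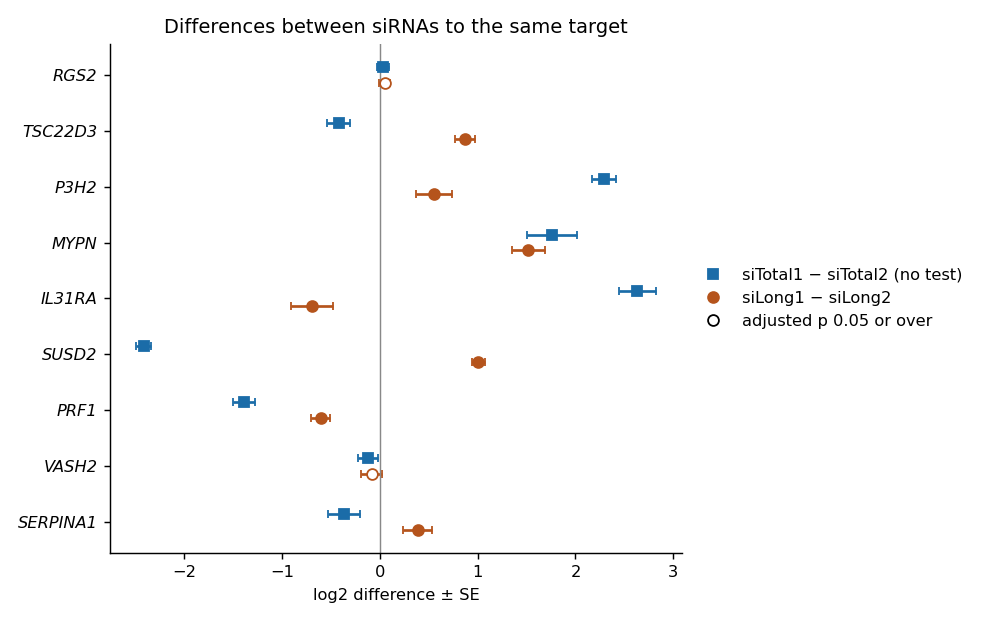
Log2 difference with its SE for each of the 9 genes in siTotal1 minus siTotal2 (squares, no test) and in siLong1 minus siLong2 (circles, filled for an adjusted p under 0.05). RGS2 and VASH2 lie close to 0 in both, and IL31RA, P3H2 and SUSD2 differ by more than 2 between siTotal1 and siTotal2.

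The siLong groups were set beside mock to see how far they lay from the control they were mostly nearer to. The siLong libraries took no part in the choice of genes, but the mock libraries did, so these differences are a description with no test. Over all genes 52.0% were called in siLong1 against mock and 50.3% in the libraries labelled siLong2 against mock.

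Among the genes high in siControl, MYPN in siLong1 stood 2.49 above mock on the log2 scale (SE 0.18), TSC22D3 0.80 (SE 0.10), IL31RA 0.64 (SE 0.24) and RGS2 0.38 (SE 0.05). P3H2 was at -0.03 (SE 0.16). In the libraries labelled siLong2, IL31RA stood 1.33 above mock (SE 0.22), MYPN 0.97 (SE 0.21) and RGS2 0.33 (SE 0.05), while P3H2 was at -0.59 (SE 0.18) and TSC22D3 at -0.07 (SE 0.11). Of these 5 genes, MYPN was farthest from mock in siLong1 and IL31RA was farthest in the libraries labelled siLong2.

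Among the genes low in siControl, PRF1 and SERPINA1 stood above mock and VASH2 below it in both siLong groups. PRF1 was at 1.10 in siLong1 (SE 0.11) and 1.70 for the libraries labelled siLong2 (SE 0.10). SERPINA1 was at 1.14 in siLong1 (SE 0.16) and 0.75 for the libraries labelled siLong2 (SE 0.16). VASH2 was at -0.55 (SE 0.10) and -0.47 (SE 0.10) in the same order, close to each other. SUSD2 was at 0.96 in siLong1 (SE 0.07) and -0.05 for the libraries labelled siLong2 (SE 0.07).

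**Figure D4:**
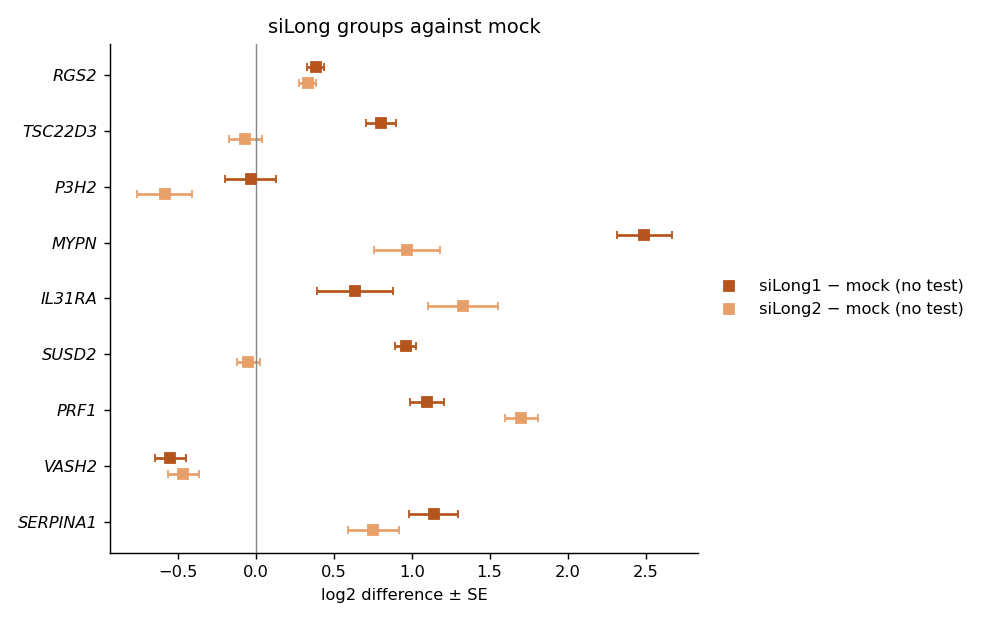
Log2 difference with its SE for each of the 9 genes in siLong1 minus mock and in siLong2 minus mock, with no test. PRF1 and SERPINA1 lie above 0 and VASH2 below 0 in both, and MYPN in siLong1 has the largest difference of the genes shown, at 2.49.

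The siTotal groups are given beside mock in the same way, with no test. In siTotal1, IL31RA was at 2.81 and P3H2 at 2.72 relative to mock on the log2 scale, and SUSD2 was at -1.01. In siTotal2, SUSD2 was at 1.40, PRF1 at 1.26 and MYPN at -0.86. Both RGS2 (-0.26 in siTotal1, -0.30 in siTotal2) and VASH2 (-0.26 in siTotal1, -0.14 in siTotal2) lay a little below mock.

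The 9 genes did not vary as one block. Over the 12 libraries, which share their scaling and include the contrast that chose the genes, the strongest relation was an inverse one between RGS2 and VASH2 (Pearson r = -0.951 of log2 CPM with a prior count of 2, a description). The libraries are 6 groups of close duplicates, so each r rests on few separate levels. For these 2 genes siControl stood apart: RGS2 averaged 108 CPM there and 29.1 to 46.7 CPM elsewhere, and VASH2 2.35 CPM there and 7.09 to 10.4 CPM elsewhere. SUSD2 went with PRF1 (0.872) and SERPINA1 (0.871), PRF1 with SERPINA1 (0.918), RGS2 with TSC22D3 (0.872) and MYPN (0.807), and IL31RA with P3H2 (0.798). P3H2 and TSC22D3, both high in siControl, had r = 0.00362.

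Genes outside the 9 with the most similar pattern were found by their correlation with the mean standardised profile over the 12 libraries. For the 5 genes high in siControl these were USP53 (r = 0.985), the phosphatase gene DUSP5 (0.980), the deubiquitinase gene JOSD1 (0.975), the thioredoxin reductase gene TXNRD1 (0.966) and MFAP3 (0.965). DUSP5 averaged 181 ± 14.3 CPM in siTotal1, 104 ± 1.26 in siTotal2, 168 ± 3.44 in siLong1 and 140 ± 2.18 for the libraries labelled siLong2 (mean ± SD, n = 2), against 276 ± 0.315 in siControl and 109 ± 0.144 in mock. For the 4 genes low in siControl they were the septin gene SEPTIN6 (0.986), the peroxidasin gene PXDN (0.984), the Notch ligand gene JAG1 (0.983), ARID5B (0.975) and the matrix metalloprotease gene MMP14 (0.974). JAG1 averaged 59.0 ± 3.48 CPM in siTotal1, 85.1 ± 1.63 in siTotal2, 71.8 ± 0.483 in siLong1 and 86.0 ± 3.05 for the libraries labelled siLong2, against 24.8 ± 0.868 in siControl and 60.1 ± 4.34 in mock. Several of these genes had small differences: JOSD1 was at 0.51 and MMP14 at -0.42 in siControl minus mock (log2). The search took genes with an average log2 CPM over 1. The genes that made the profiles followed them less closely in part. Those high in siControl had r of 0.566 (P3H2) to 0.882 (MYPN) with their own mean, and those low in siControl 0.884 (VASH2) to 0.966 (SERPINA1).

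Relatives of the 9 genes, from lists of families and partners, were read in siControl against mock, where 39.8% of all genes were called. Of 13 tested glucocorticoid-responsive genes 6 rose and 1 fell (median 0.10, against -0.01 over all genes). The insulin signalling adaptor gene IRS2 rose by 1.06 (SE 0.08, adjusted p = 6.57e-13) and the transcription factor gene CEBPD by 0.79 (SE 0.155, adjusted p = 8.91e-05), while FKBP5, a chaperone gene that glucocorticoids induce as they do TSC22D3, fell by 0.70 (SE 0.04, adjusted p = 3.14e-16). Among the other TSC22 genes, TSC22D2 rose by 0.73 and TSC22D1 fell by 0.72 (median of 3 genes 0.08). TSC22D1 averaged 121 CPM in siControl, the lowest of the 6 groups, against 200 CPM in mock. In the RGS family 3 of 12 rose and 3 fell (median -0.11), with RGS6 at -0.90, RGS20 at 0.56 and RGS17 at -0.49. Genes of interleukin-31 and interleukin-6 family signalling rose in 5 of 11 and fell in 2 (median 0.10), with the receptor genes IL6R (0.58) and IL6ST (0.47) higher in siControl and the cytokine gene LIF lower (-0.54).

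Collagen-modifying and collagen IV genes, the setting in which P3H2 works, fell in 12 of 19 and rose in 1 (median -0.35). P4HA3, a prolyl 4-hydroxylase gene, fell by 0.74 (SE 0.23, adjusted p = 0.00914), P3H4 by 0.66 (SE 0.07, adjusted p = 1.59e-10) and P3H3 by 0.65 (SE 0.06, adjusted p = 6.75e-11), opposite to P3H2. In the list of tubulin-modifying genes and partners drawn up for VASH2, 2 of 6 fell and 0 rose (median -0.08). AGBL5 fell by 0.43 (SE 0.05, adjusted p = 3.28e-08) and SVBP, the partner of VASH2, by 0.32 (SE 0.10, adjusted p = 0.00765). In the Z-disc and palladin list 2 of 10 rose and 4 fell, although the median was 0.14. ACTN2 (-2.36) and ANKRD2 (-1.33) fell, with means under 1 CPM in both groups. The giant sarcomere gene TTN was at 1.86 CPM in siControl and 0.824 CPM in mock (log2 1.17, adjusted p = 6.27e-05).

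Of 16 listed cytotoxic granule genes only 8 had enough reads to be tested, and of these 4 rose and 0 fell (median 0.31), again opposite to PRF1. GZMA had 0 reads, and GZMB, GNLY and NKG7 reached at most 0.305, 0.265 and 0.0255 CPM. The membrane fusion gene STX11 rose by 2.18 (SE 0.17, adjusted p = 3.21e-13), at 6.15 ± 0.258 CPM in siControl and 1.37 ± 0.341 CPM in mock, and the 4 NFYA siRNA groups averaged 2.17 to 3.99 CPM. LYST rose by 0.80 and UNC13D by 0.71. Of 8 sushi domain and complement control genes 3 rose and 2 fell (median -0.05), with the complement regulator CD55 up by 0.77, SUSD1 at -0.34 and the galectin gene LGALS1, whose protein binds SUSD2, down to 202 CPM in siControl against 323 CPM in mock (log2 -0.68, adjusted p = 1.29e-15). Serpin genes fell in 8 of 13 and rose in 2 (median -0.80). SERPINA5 fell by 1.89 (SE 0.215, adjusted p = 6.23e-09), at 0.905 ± 0.0535 CPM in siControl and 3.38 ± 0.0614 CPM in mock. SERPINF1 had 0 reads in both siControl libraries and averaged 0.244 CPM in mock.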

How the data were processed

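The authors deposited 1 table of raw counts, with Ensembl genes in rows and libraries in columns, made with STAR 2.4.0f1, featureCounts and the hg19 build per the submitters' processing notes. Neither the annotation release nor the strand setting was found in those notes, so whether antisense reads were kept apart is not known here. Columns were matched to libraries by title, and 0 columns belonged to other samples. Symbols were found for 52526 of 63677 identifiers. Gene positions are GENCODE 29 on GRCh38, matched by identifier, not hg19.

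The filter was filterByExpr with a minimum count of 10 and a minimum total of 15. TMM factors scaled the libraries, and edgeR 4.0.16 (R 4.3.3) fitted 6 groups with a robust quasi-likelihood model (6 residual degrees of freedom). P-values were adjusted by Benjamini-Hochberg over all 17730 genes, with calls under 0.05. For the 9 genes, only the tests between siLong1 and the libraries labelled siLong2 are reported, since those libraries did not enter their choice. Planned tests of siTotal1 against siTotal2 and of the siLong groups against mock are left out for these genes. The siTotal and mock libraries took part in the choice. The fit was tested on simulated data. No pair of replicates was a duplicate library, with chi-square values of 1.87 to 7.90 per degree of freedom. The alternatives were DESeq2 1.42.0, other size factors and filters, a replicate block, 2-group fits and leaving out each library.

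The 9 genes and the lists were chosen with earlier results of these data known. Of non-members, the text names NFYA, the 5 best-correlated genes per profile and up to 3 called relatives per list with the largest differences, 1 of which is not reported here. AL390957.1, MTAPP2 and P3H2-AS1 are named as overlapping annotations.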

Additional observations from a re-analysis of the deposited data

Results flagged for a closer look

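The effects of siLong1 and of the libraries labelled siLong2, each against the same mock, differed in 7 of the 9 genes by the direct test, where 53.7% of all genes were called (edgeR quasi-likelihood, adjusted p under 0.05; 2 libraries each). The log2 differences of siLong1 minus siLong2 were 1.01 for SUSD2, -0.61 for PRF1, 1.52 for MYPN, -0.69 for IL31RA, 0.55 for P3H2, 0.87 for TSC22D3 and 0.39 for SERPINA1. The calls of IL31RA, P3H2 and SERPINA1 were lost in 2, 2 and 4 refits, given in the report. At the same time NFYA counts were lower in siLong1 (log2 -0.57, adjusted p = 3.26e-12) than in the siLong2-labelled libraries, and the part of this in the differences was not tested.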

How the results depend on the processing

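The 9 tests between siLong1 and the libraries labelled siLong2 kept their outcome in 154 of 162 refits. These 154 include 18 each for RGS2 and VASH2, which had no call to keep, and many refits left both siLong groups whole. The other 8 lost the call in the same direction, with 0 called differences reversed. The 8 concerned IL31RA, P3H2 and SERPINA1, with their values in the report. Of these 8 refits 7 left out 1 library of a siLong group and 1 used DESeq2, and the cause was not tested further. Genes called ranged from 6379 to 7843 between siTotal groups when each library was left out, from 8028 to 9882 between siLong groups, from 7613 to 9577 and 7418 to 9257 in the siLong groups against mock, and from 5578 to 7438 in siControl against mock, and the other alternatives stayed within 1.5 times the reported counts. A fit without the libraries labelled siLong2, chosen after seeing the data, could not give these tests and left the counts of the other comparisons within 1.5 times. With the replicate number as a block, 7794, 9550, 9248, 8939 and 7098 genes were called in the same 5 comparisons, and no call of the 9 genes between siLong groups changed. Deviations of same-numbered libraries correlated at r of -0.255 to 0.230 over 15 pairs of groups, over 0.1 in 5 of them, so the numbers were not taken to pair the samples. Depth limits SERPINA1, MYPN and IL31RA most, with as few as 19, 20 and 27 reads in a library.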
